A study of Mus musculus with 3 samples.

Results

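Processed pseudogenes were described in testis, brain and liver of adult mice. They were the rows of the expression tables whose gene identifier carries the GENCODE M21 biotype processed_pseudogene or transcribed_processed_pseudogene and whose locus spans 200 bp or more. These were 3729 of 36809 genes, 3588 of the first biotype and 141 of the second. Without the length limit there were 3877 processed pseudogenes. The study sequenced polyadenylated RNA from the testis, the brain and the liver of 11-week-old male C57BL/6 mice, with 1 strand-specific library of 76-base single-end reads per tissue. No genetic change or treatment was named in the labels, and the sources used here do not give the number of animals behind a library. Each value below is an FPKM, that is fragments per kilobase of transcript per M mapped fragments, with the authors' confidence bounds in brackets, which were taken as 95% bounds. With 1 library per tissue there was no replicate error, no test was possible, and every comparison is between 3 libraries. These bounds reflect how well a value was estimated in its library, not variation between animals.

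A processed pseudogene arises when the mRNA of a gene is copied into DNA by the enzymes of retrotransposons and inserted elsewhere in the genome. The copy carries the spliced exons of its source, has usually no promoter of its own, and usually decays by mutation. Highly expressed housekeeping genes, such as those for ribosomal proteins and glycolytic enzymes, have left many copies, and testis is known for transcribing some of them during germ cell development. Because a recent copy can be nearly identical to its source, a short read from the source mRNA can match both.

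The members had a median span of 596 bp (quartiles 405 to 964), and 3283 of them (88.0%) had a single exon in the annotation. Of all members, 864 (23.2%) lay on chromosome X, against 6.99% of all features. A best-matching protein-coding gene, called the parent here from sequence likeness alone, was found for 3553 members, and these had 1368 different parents. Their median identity to the parent was 90.8% (quartiles 83.0 to 96.4%). The likeness that matters for reads of this length was taken from windows of 76 bases. A window was counted as unique when it occurred exactly in no transcript of another gene. All windows were unique in 1949 members (52.3%), at least 80% of them in 2742, and none in 127. When up to 2 mismatches were allowed, 1975 members still had at least 80% unique windows. How the authors placed reads with several matches is not given in the sources used here.

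A stretch of 76 bases, the length of 1 read, shows the range of likeness for 7 members on which the results below turn. Each is printed beside its parent, 5′ to 3′, with the differing bases in capitals, as given by the GENCODE M21 transcripts. The first pair does not differ at any base over this stretch, and the last differs at 18. Gm5537 copies the glycolytic enzyme gene Pgk1, and Gm12892 the brain creatine kinase gene Ckb. Gad1-ps copies the GABA-synthesising enzyme gene Gad1, and Mup-ps22 matches Mup20, which encodes a major urinary protein made in liver. 1700049L16Rik matches Jpt2, Gm11780 the phosphatase gene Ptp4a2, and Ppp1r2-ps7 the gene of a protein phosphatase 1 inhibitor.
Gm5537: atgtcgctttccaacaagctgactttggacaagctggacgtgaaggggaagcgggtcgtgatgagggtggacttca
Pgk1: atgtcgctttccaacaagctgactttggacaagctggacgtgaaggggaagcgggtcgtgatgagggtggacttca
Gm12892: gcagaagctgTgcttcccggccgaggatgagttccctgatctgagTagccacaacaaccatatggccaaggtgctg
Ckb: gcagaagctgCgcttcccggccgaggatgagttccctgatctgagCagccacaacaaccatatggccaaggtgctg
Gad1-ps: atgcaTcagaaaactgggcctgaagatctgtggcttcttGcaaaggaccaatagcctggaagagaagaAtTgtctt
Gad1: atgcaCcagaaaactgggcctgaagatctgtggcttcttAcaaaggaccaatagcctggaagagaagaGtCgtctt
Mup-ps22: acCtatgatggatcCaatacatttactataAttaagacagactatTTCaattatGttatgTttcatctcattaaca
Mup20: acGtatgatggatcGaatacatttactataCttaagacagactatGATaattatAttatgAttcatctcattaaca
1700049L16Rik: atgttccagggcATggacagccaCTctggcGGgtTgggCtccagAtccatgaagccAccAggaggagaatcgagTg
Jpt2: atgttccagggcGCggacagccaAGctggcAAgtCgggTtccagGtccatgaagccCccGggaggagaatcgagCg
Gm11780: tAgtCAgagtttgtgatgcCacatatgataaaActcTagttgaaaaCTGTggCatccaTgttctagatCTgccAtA
Ptp4a2: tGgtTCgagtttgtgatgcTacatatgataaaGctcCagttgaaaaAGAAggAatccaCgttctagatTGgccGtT
Ppp1r2-ps7: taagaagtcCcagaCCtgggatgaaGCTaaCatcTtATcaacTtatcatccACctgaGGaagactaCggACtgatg
Ppp1r2: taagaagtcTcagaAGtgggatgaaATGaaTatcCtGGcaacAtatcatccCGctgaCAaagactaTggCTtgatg

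If they held counting error alone, the bounds would imply 41.3 M fragments in testis, 31.8 M in brain and 86.4 M in liver. They cover more than that, so these are not read counts. At 1 to 2 FPKM the bounds were narrowest in liver. Members at 1 to 2 FPKM had a median half-width of 30.9% of the value in testis, 29.2% in brain and 18.5% in liver. Testis had 8 estimates not marked OK, brain 6 and liver 11. The organ labels stood against their markers: the sperm protamine gene Prm2 had 12924 FPKM in testis, the synaptic gene Snap25 had 933 FPKM in brain, and the albumin gene Alb had 20975 FPKM in liver. The testis markers Prm1, Prm2, Tnp1, Ldhc and Insl3 were also listed in brain, at 0.0592 to 0.0940% of their testis value. The marker Insl3, of the hormone-making Leydig cells, had a failed estimate in testis. In whole organs, fewer cells of a type and less RNA per cell cannot be told apart. Just inside the length limit lay Gm6025 and Gm11253 at 201 bp and Gm14469 at 202 bp, which were listed at 0 in all 3 libraries except for 6.63 FPKM of Gm6025 in testis. Just outside it lay Gm15029 at 199 bp, listed at 0 in all 3, and Gm11471 at 198 bp, with 1.62 FPKM in testis and listed at 0 in brain and liver. Gm14491 at 199 bp, also outside it, had 57.8 FPKM in testis, 1028 FPKM in brain and 456 FPKM in liver.

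Processed pseudogenes at 1 FPKM or more, called detected here, were 1592 in the testis library, 1461 in the brain library and 1341 in the liver library. That is 42.7% of members in testis (exact binomial 95% interval 41.1 to 44.3%), against 42.9% of all features. In brain it is 39.2% (37.6 to 40.8%) of members, against 40.3% of all features, and in liver 36.0% (34.4 to 37.5%), against 30.3%. Among all features of 200 bp or more the shares were 48.1% in testis, 44.6% in brain and 34.0% in liver. The share of members was near that of all features in testis and brain and above it in liver. Against features of 200 bp or more it was lower in testis and brain and higher in liver, as deposited. The intervals cover the counting of members only. Members share reads and each tissue has 1 library, so the intervals do not measure a difference between classes or tissues. Of the members, 1254 reached 1 FPKM in all 3 libraries, 214 in testis alone, 57 in brain alone and 27 in liver alone, and 1041 were listed at 0 in all 3. Of the summed FPKM of features with a span of at least 200 bp, processed pseudogenes held 19.4% in testis, 25.9% in brain and 11.8% in liver.

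**Figure D1:**
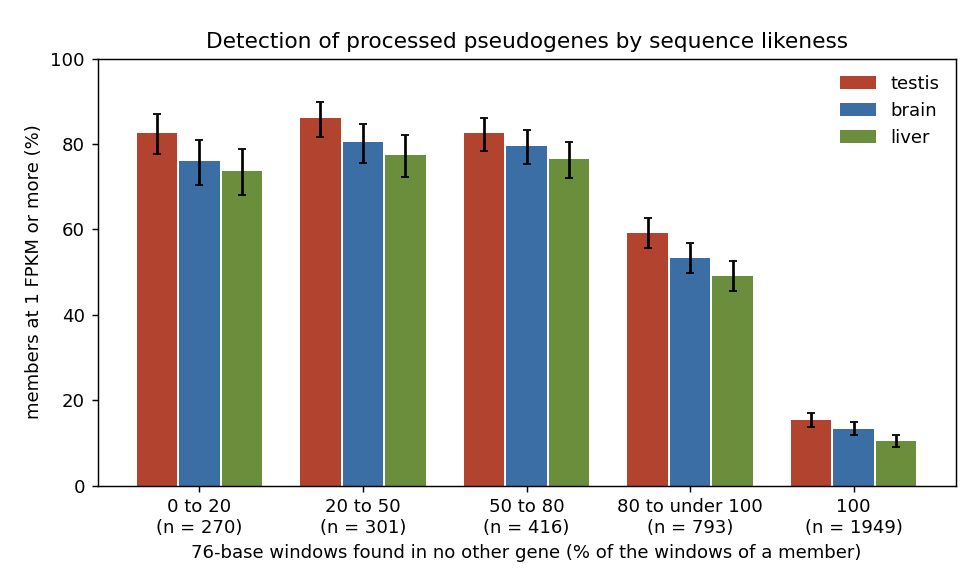
Share of processed pseudogenes at 1 FPKM or more (y axis, %) in testis, brain and liver, by the share of their 76-base windows found in no other gene (x axis, %, with the number of members). Bars start at 0 and carry exact binomial 95% intervals over members. The 3 classes under 80% unique windows stand between 73.7% and 86%, and members with unique windows throughout stand at 15.3% in testis, 13.3% in brain and 10.4% in liver.

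Detection went with likeness to other genes. Of the 987 members with under 80% unique windows, 825 (83.6%) were detected in testis, 778 (78.8%) in brain and 750 (76.0%) in liver. Of the 2742 members with at least 80% unique windows, 767 (28%) did so in testis, 683 (24.9%) in brain and 591 (21.6%) in liver. Of the 1949 members whose windows were all unique, 298 did so in testis, 260 in brain and 202 in liver. As deposited, the order testis, brain, liver was the same in all 5 classes of the plot of detection by likeness. The order of brain and liver depends on the scaling: over all members the counts were 1548 in testis, 1399 in brain and 1456 in liver with median-ratio scaling, 1703, 1130 and 1521 with equal FPKM sums, and 1559, 1539 and 1296 with equal protein-coding sums. Sequence age was not separated from shared reads here, since identity and unique windows change together: median identity was 99.8% in the class of 0 to 20% unique windows and 84.5% in the class of 100%.

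Annotation and position divided the members further. Those annotated as transcribed reached 1 FPKM in 61.7% of cases in testis, 44.7% in brain and 39.0% in liver. Members on chromosome X did so in 29.3% of cases in testis, 24.8% in brain and 21.3% in liver, against 46.7%, 43.5% and 40.4% for members on other chromosomes. Of all features on chromosome X, 36.2% did so in testis, 25.5% in brain and 17.8% in liver. Members on chromosome X also had a lower median identity to their parents, 87.2% against 91.9%. In the annotation 2384 members lay between genes, 806 opposite a gene on the other strand, 462 in an intron of a gene on the same strand and 77 across an exon of one. Testis detection was 42.3%, 43.5%, 41.1% and 54.5% in this order. Members that overlap an exon of another gene on their strand cannot be told apart from it by position.

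The 5 most abundant members of each library included close copies of genes for ubiquitin, ribosomal proteins and translation factors. Gm1821, which matches the polyubiquitin gene Ubb at 97.7% identity and has 15.3% unique windows, had 6583 FPKM in testis, 2702 FPKM in brain and 696 FPKM in liver. Ubb itself had 5631 FPKM in testis, 2216 FPKM in brain and 577 FPKM in liver. Copy and parent had the same order over the tissues. Gm12481, identical over its length to the parent Serf2 and without a unique window, had 3728 FPKM in testis, 2320 FPKM in brain and 2530 FPKM in liver, against 247, 147 and 154 FPKM for Serf2 in the same order. The FPKM listed for Gm12481 was above that of Serf2, but reads of the copy and of Serf2 cannot be told apart over that length. Rpl39-ps, a copy of the ribosomal protein gene Rpl39, had 871 FPKM in testis, 5103 FPKM in brain and 5047 FPKM in liver, against 22.5, 137 and 133 FPKM for Rpl39. Both were lowest in testis. Dynlt1-ps1, identical over its length to the dynein light chain gene Dynlt1a and without a unique window, was among the 5 highest in testis alone. It had 2356 FPKM in testis, 37.5 FPKM in brain and 15.6 FPKM in liver, against 232, 4.71 and 1.51 FPKM for Dynlt1a.

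The highest members with at least 80% unique windows had parents of several kinds. Gm1848, a copy of the sodium pump subunit gene Atp1b3, had 1797 FPKM [1405 to 2188] in testis, 331 FPKM in brain and 77.0 FPKM in liver. Its windows were 83.9% unique, and 18.1% unique when 2 mismatches were allowed. Atp5k-ps2, a copy of an ATP synthase subunit gene, had 875 FPKM in testis, 1966 FPKM in brain and 1533 FPKM in liver. Gm6977, a copy of the ferritin heavy chain gene Fth1 with 92.7% unique windows, had 134 FPKM in testis, 1733 FPKM in brain and 605 FPKM in liver, against 242, 3241 and 1089 FPKM for Fth1. The tissue order of Gm6977 was that of Fth1. Gm7308 and Gm15720, copies of the calmodulin gene Calm2, had 558 and 456 FPKM in testis, 1512 and 1068 FPKM in brain, and 99.5 and 81.5 FPKM in liver. Cct3-ps1, a copy of a chaperonin subunit gene with all windows unique, had 784 FPKM in testis, 293 FPKM in brain and 219 FPKM in liver, against 325, 96.2 and 60.5 FPKM for Cct3. The fifth in testis was 1700019M22Rik, which was nearly absent from the other libraries and is described with the differences between tissues.

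The level of a member relative to its parent moved with sequence likeness. Levels here are FPKM, per length of each feature, and reads shared by member and parent were not separated. Over pairs whose parent reached 1 FPKM, members with 0 to 20% unique windows had a median of 158% of the parent's level in testis, 148.9% in brain and 177% in liver. Members with 80 to under 100% unique windows had 11.5% in testis, 8.42% in brain and 8.91% in liver, and the median was 0 in all 3 libraries for members with unique windows throughout. Of the members at 1 FPKM or more with a parent in the tables, 619 of 1535 stood above the parent in testis, 532 of 1432 in brain and 555 of 1320 in liver. With at least 80% unique windows these counts were 131, 92 and 102 in the same order. With at least 80% unique windows at up to 2 mismatches they were 39 of 283 in testis, 20 of 242 in brain and 21 of 186 in liver, and 15 members stood above the parent in all 3.

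**Figure D2:**
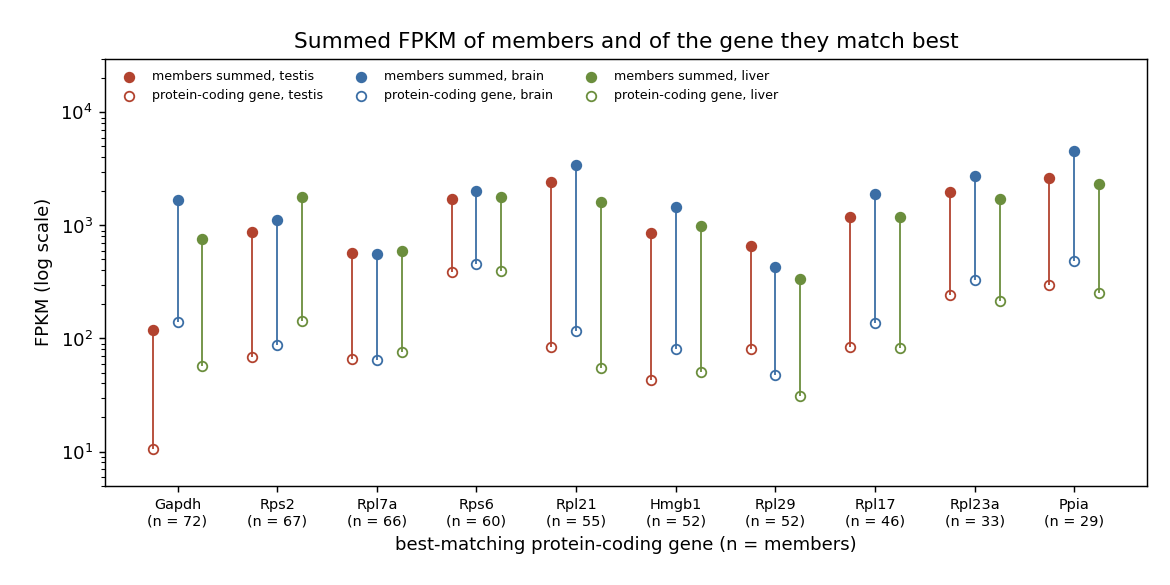
Summed FPKM of the members that match a protein-coding gene best (filled circles) and FPKM of that gene (open circles), on a log axis, in testis, brain and liver, for the 10 genes with most members among those with a value in the tables, which leaves out Gm10358 with 41 members. For these 10 the members' sum was above the gene in every tissue, and for Gapdh it was 11.3 times the gene in testis, 12 times in brain and 13.2 times in liver.

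The summed level of the copies of 1 gene was set beside that gene. The 72 copies of Gapdh, the glycolytic enzyme with the most copies, summed to 118 FPKM in testis, 1687 FPKM in brain and 756 FPKM in liver, against 10.5, 141 and 57.1 FPKM for Gapdh. Of them 21 were detected in testis, 25 in brain and 23 in liver. The highest in each library was Gm13394, with 15.3 FPKM in testis, 224 FPKM in brain and 94.4 FPKM in liver and only 8.22% unique windows. A further 41 members match Gm10358 best, and for 35 of them Gapdh was the second match. These 41 are counted neither in the 72 nor in the 113 copies of glycolytic enzyme genes below. The 67 copies of the ribosomal protein gene Rps2 summed to 12.8 times its FPKM in testis, 12.8 times in brain and 12.6 times in liver, and the 55 copies of Rpl21 to 28.5, 29.3 and 29.2 times. Other ratios moved more: the 52 copies of Rpl29 summed to 8 times its FPKM in testis, 9.02 times in brain and 10.7 times in liver, and the 25 copies of H3f3a to 3.83, 3.29 and 2.55 times. The 52 copies of Hmgb1, a chromatin protein gene, summed to 19.8 times its FPKM in testis, 18 times in brain and 19.6 times in liver. Not every sum was above its gene. In the same order the 18 copies of Ldha summed to 0.645, 0.621 and 0.697 times its FPKM. The 15 copies of Actb summed to 0.0367, 0.0336 and 0.0305 times. Copies share reads with each other as well as with the parent, so a sum over copies is not a sum of independent measurements.

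Differences between libraries were called at 4-fold or more on log2(FPKM + 1) with the bounds of both values apart. In testis against brain, 232 members were called higher (6.22% of members, against 11% of all features) and 99 lower (2.65%, against 7.19%). In testis against liver, 330 were called higher (8.85%, against 15.2%) and 83 lower (2.23%, against 3.82%). In brain against liver, 80 were called higher (2.15%, against 9.15%) and 35 lower (0.939%, against 2.79%). Each share of members was below the share of all features. Over members at 1 FPKM or more in either library, testis minus brain had a median of 0.22 on the log2 scale, against 0.11 over all features detected likewise. Testis minus liver had a median of 0.75, against 1.18, and brain minus liver one of 0.46, against 0.91.

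The balance of these calls depends on how the libraries are scaled. As deposited, 70.1% of the calls between testis and brain were higher in testis. The share was 46.8% when libraries were scaled to the same sum of protein-coding FPKM, which shifts all log2 differences by -0.72, 99.6% with equal FPKM sums (shift 2.79), and 71.8% with median-ratio scaling (shift 0.07). Between testis and liver it was 79.9% as deposited, 82.0% with equal protein-coding sums (shift 0.11), 68.4% with equal FPKM sums (shift -0.62) and 50.7% with median-ratio scaling (shift -1.08). Between brain and liver 69.6% of the calls were higher in brain as deposited, 93.3% with equal protein-coding sums (shift 0.83), 1% with equal FPKM sums (shift -3.40) and 31.6% with median-ratio scaling (shift -1.15). The FPKM sum covers features of all lengths. Over all features it was 2.04e+06 in testis, 1.41e+07 in brain and 1.33e+06 in liver. Over features of 200 bp or more it was 818120, 556911 and 923113 in the same order. Most of the brain sum thus lay in features under 200 bp, so equal FPKM sums scale the brain library mainly by those features.

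**Figure D3:**
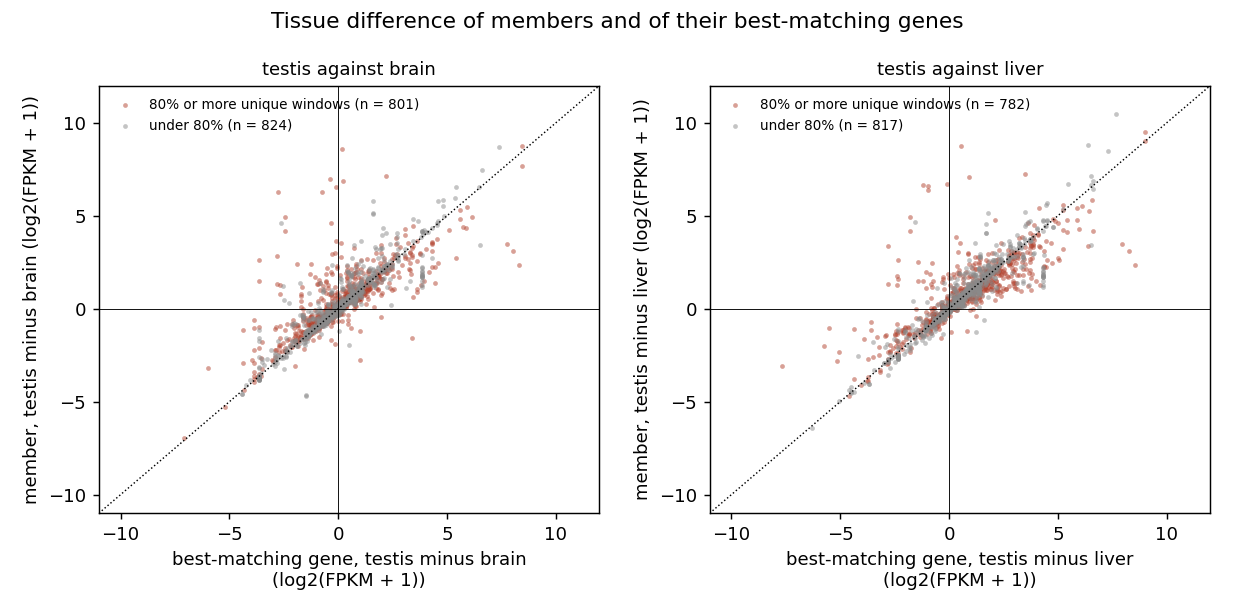
Difference of each member between tissues (y axis) against that of its parent gene (x axis), both on log2(FPKM + 1), for members at 1 FPKM or more in either library, testis minus brain at the left and testis minus liver at the right. Red points are members with at least 80% unique windows, grey points the others, and the dotted line marks equal differences. Of the 1625 pairs in the left panel 84.7% lie within 1 log2 unit of that line.

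The difference of each member between tissues was set beside that of its parent, where the member reached 1 FPKM in either library and the parent was in the tables. In testis minus brain, 84.7% of 1625 members lay within 1 log2 unit of the parent's difference, in testis minus liver 85.9% of 1599, and in brain minus liver 93.3% of 1474. For members with at least 80% unique windows at up to 2 mismatches these shares were 73.5% of 328, 70.0% of 310 and 83.8% of 260. In testis minus brain 63 members stood at least 2 log2 units above the parent's difference and 32 at least 2 below it. In testis minus liver these were 49 and 39, and in brain minus liver 14 and 15. These pairs share reads where they share sequence. Members and parents that both differ little between libraries also count as near, so the shares are given as a description.

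Calls of members and parents were compared likewise. Of the 203 members called higher in testis than brain with a parent in the tables, 124 had a parent called the same way, 74 a parent not called and 5 a parent called lower. Of the 93 such members called lower in testis than brain, 86 had a parent called lower as well. Of 299 members higher in testis than liver, 217 had a parent called higher, and of 79 lower, 72 had a parent called lower. Of 78 members higher in brain than liver, 65 had a parent called higher, and of 34 lower, 26 had a parent called lower. Members with at least 80% unique windows gave 65 of 107 for higher and 33 of 36 for lower in testis than brain.

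The 5 members that were higher in testis than brain while the parent was lower are named, although they were picked after their values were seen. 1700022A21Rik had 81.1 FPKM in testis, 0.0775 FPKM in brain and was listed at 0 in liver, while its parent Gpd1l, a glycerol phosphate dehydrogenase gene, had 0.662 FPKM in testis and 10.4 FPKM in brain. Rps4l, on chromosome 6, had 57.8 FPKM in testis, 7.15 FPKM in brain and 4.65 FPKM in liver, while the ribosomal protein gene Rps4x had 7.02 FPKM in testis, 56.1 FPKM in brain and 54.7 FPKM in liver. The order of Rps4l over testis and brain was the reverse of that of Rps4x. Gm4984 and Gm13570, which match the mitochondrial pyruvate carrier gene Mpc1 at 69.5% and 70.2% identity, had 29.9 and 17.1 FPKM in testis and were both listed at 0 in brain and liver. At up to 2 mismatches only 31.0% and 16.7% of their windows were unique, so reads could be shared with other genes. Gm12684, a Gapdh copy of 89.1% identity, had 5.18 FPKM in testis, 0.0166 FPKM in brain and 0.0155 FPKM in liver.

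The members with the greatest differences between testis and brain were nearly absent from brain. 1700019M22Rik (ENSMUSG00000059695, chr12:97284831-97285432, minus strand, mm9, between genes) had 744 FPKM [734 to 754] in testis, 0.701 FPKM [0.395 to 1.01] in brain and 0.0156 FPKM [0 to 0.0468] in liver. The log2 difference was 8.78 for testis minus brain and 9.52 for testis minus liver. Its best match was 1700084M14Rik, which had 508 FPKM in testis, 0.450 FPKM in brain and was listed at 0 in liver. Gm14868, on chromosome X, had 1404 FPKM in testis and 2.40 FPKM in brain and was listed at 0 in liver, and its 216 bp are identical to the cysteine-string protein gene Dnajc5b, which had 206 FPKM in testis. Gm14868 therefore has no window of its own. Spanxn4, for which no parent was found, had 540 FPKM [529 to 551] in testis and 0.551 FPKM in brain and was listed at 0 in liver. Gm9059, also matching 1700084M14Rik, had 512 FPKM in testis and 1.53 FPKM [0 to 3.69] in brain and was listed at 0 in liver.

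The brain values of such members are set beside the testis markers. In 1700019M22Rik the brain value was 0.0942% of the testis value, in Spanxn4 0.102%, in Gm9059 0.299% and in Gm14868 0.171%, against 0.0592 to 0.0940% for the 5 testis markers. The part of testis RNA in the brain values was not tested.

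The extremes in the other direction were copies of genes with strong brain or liver expression. Gm12892 (chr4:121756168-121757313, plus strand, between genes) had 2.38 FPKM [2.02 to 2.74] in testis, 412 FPKM [407 to 417] in brain and 0.929 FPKM [0.773 to 1.08] in liver, a log2 difference of -6.93 for testis minus brain. Ckb had 2.79 FPKM in testis, 516 FPKM in brain and 1.23 FPKM in liver. Gm12892 and Ckb differ at 2 of the 76 bases shown above. Gm5537 and Pgk1-rs7, on chromosomes 3 and 12, were listed at the same 8.44 FPKM in testis, 229 FPKM in brain and 154 FPKM in liver, and Pgk1 had 4.06 FPKM in testis, 108 FPKM in brain and 64.7 FPKM in liver. Their sequences are identical to Pgk1 over their length, so the 3 loci cannot be told apart by reads within it. In all, 70 members not at 0 throughout shared their 3 values with another row.

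Against liver, Gm5424 (chr10:61533871-61535109, plus strand, between genes) had 25.5 FPKM [24.3 to 26.6] in testis, 18.7 FPKM [17.7 to 19.7] in brain and 2270 FPKM in liver, a log2 difference of -6.42 for testis minus liver. Its parent, the urea cycle gene Ass1, had 6.04 FPKM in testis, 5.12 FPKM in brain and 557 FPKM in liver, and 64.8% of the windows of Gm5424 occur in Ass1. Gm9826, a copy of the homocysteine-forming enzyme gene Ahcy, had 6.97 FPKM in testis, 5.18 FPKM in brain and 243 FPKM in liver. Both copies were highest in liver, as were both parents. Gm12222, a copy of the acyl-CoA-binding protein gene Dbi with all windows unique, had 188 FPKM in testis, 630 FPKM in brain and 3295 FPKM in liver, against 315, 1089 and 5184 FPKM for Dbi. In the same order Ftl2-ps, a ferritin light chain copy, had 49.5, 112 and 1156 FPKM, and it overlaps an exon of Mir692-2 on its strand.

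Between brain and liver several members with great differences again had parents of the same pattern, but Pabpc1l2b-ps, described below, did not. Fabp3-ps1, a copy of a fatty acid binding protein gene, had 246 FPKM in brain and was listed at 0 in liver, and it had 442 FPKM in testis. Gm11223, a copy of the stathmin gene Stmn1, had 1116 FPKM in brain and 10.05 FPKM in liver, against 700 and 6.74 FPKM for Stmn1. Gm5514, a copy of the lactate dehydrogenase gene Ldhb, had 219 FPKM in brain and 0.669 FPKM in liver, against 261 and 0.624 FPKM for Ldhb. Gm15289 and Gm15285, neighbours on chromosome 13 that match Etfa, an electron transfer flavoprotein gene, on opposite strands, had 119 and 19.9 FPKM in brain and 764 and 134 FPKM in liver. Etfa had 8.63 FPKM in brain and 59.7 FPKM in liver, below both copies.

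**Figure D4:**
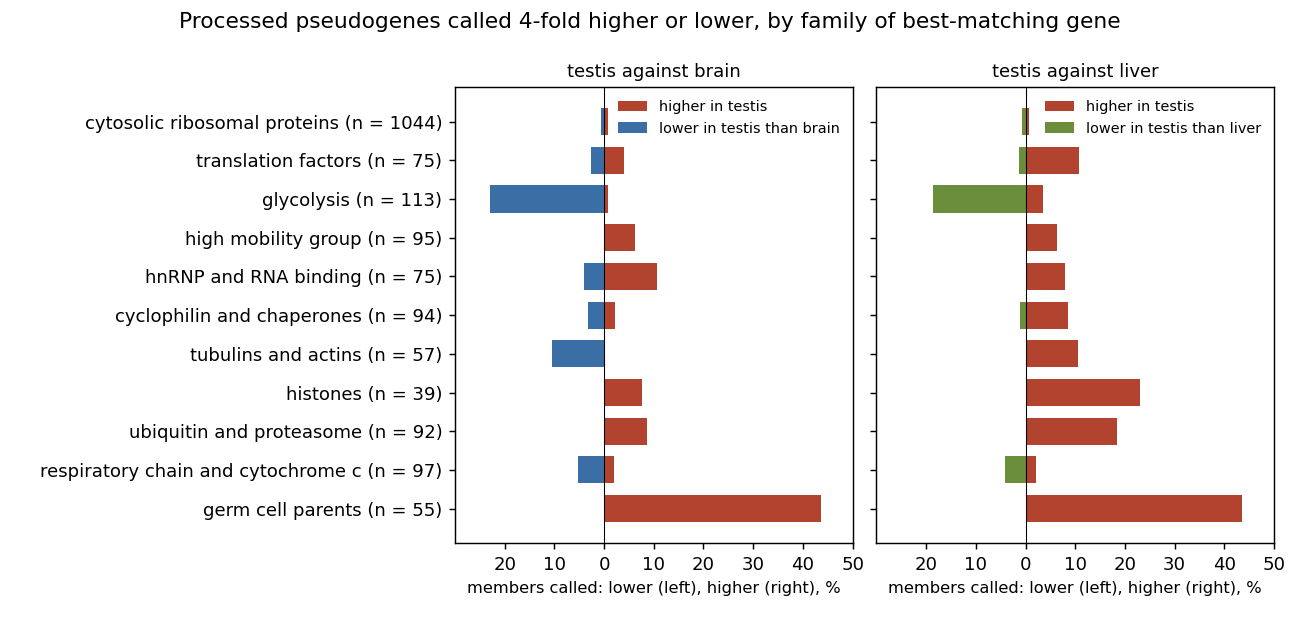
Share of members called higher (right of 0) or lower (left of 0) in testis than brain and in testis than liver, in % of the members of each family of parent genes. The 3 members whose parent is the ferritin gene Fth1 or Ftl1 are left out. Over all features 11% were higher and 7.19% lower than brain, and 15.2% higher and 3.82% lower than liver. Glycolysis stands out to the left with 26 of 113 members lower than brain and 21 lower than liver as deposited. With equal FPKM sums 0 were lower and 8 higher than brain, but most of the brain sum lay in features under 200 bp. The parents of the lowest row, labelled germ cell parents, were selected for testis expression and not by cell type.

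By family of the parent, the ribosomal protein copies were the most numerous, and as deposited few were called. Of 1044 copies, 403 were detected in testis, 382 in brain and 371 in liver. In testis against brain 9 (0.862%, against 11% of all features) were called higher and 7 (0.670%, against 7.19%) lower. In testis against liver 7 (0.670%, against 15.2%) were called higher and 7 (0.670%, against 3.82%) lower. With equal protein-coding sums 5 were higher and 15 lower than brain, with equal FPKM sums 295 and 0, and with median-ratio scaling 5 were higher and 23 lower than liver. Here and below, counts under other scalings have no share of all features beside them. A scaling applies to all features, so these counts show dependence on scaling and are not results about a family. The lower copies included 4 of 22 copies of the X-linked gene Rpl10, against both brain and liver. Rpl10 had 42.8 FPKM in testis, 223 FPKM in brain and 304 FPKM in liver. A further 75 members copy genes listed as translation factors, a list that also takes Tpt1, Npm1 and the Nap1l genes. Of these 75, 3 (4%, against 11% of all features) were higher and 2 (2.67%, against 7.19%) lower in testis than brain. Of the 2, 1 was a copy of Npm1. In testis against liver 8 (10.7%, against 15.2%) were higher and 1 (1.33%, against 3.82%) lower, and 4 of the 8 were copies of Eif1. With equal FPKM sums 44 were higher and 0 lower than brain, and with median-ratio scaling or equal FPKM sums 3 were higher than liver.

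Glycolytic enzyme genes encode the steps from glucose to lactate. Their 113 copies were called lower in testis more often than the other families in the plot. That plot leaves out the 3 members whose parent is the ferritin gene Fth1 or Ftl1, of which 1 was lower in both comparisons. Ftl2-ps is not among these 3. Of the 113 copies 26 (23.0%, against 7.19% of all features) were lower and 1 (0.885%, against 11%) higher in testis than brain. Of the 26, 21 were copies of Gapdh. In testis against liver 21 (18.6%, against 3.82%) were lower and 4 (3.54%, against 15.2%) higher, 19 of the 21 being copies of Gapdh. The median difference of those detected was -3.05 for testis minus brain and -2.15 for testis minus liver on the log2 scale, and with equal FPKM sums 8 were higher and 0 lower than brain. Among the 82 with at least 80% unique windows, 3 (3.66%) were lower and 1 (1.22%) higher than brain, and 1 (1.22%) lower and 2 (2.44%) higher than liver. The median of the 15 of these detected in testis or brain was 0.996 log2 units for testis minus brain, the opposite sign. Pgam1-ps2, identical to the phosphoglycerate mutase gene Pgam1, had 31.1 FPKM in testis, 252 FPKM in brain and 85.9 FPKM in liver, against 14.5, 122 and 36.8 FPKM for Pgam1. Most of the copies called lower thus had under 80% unique windows, with the rest of their windows also in other genes. The part of shared reads in these calls was not tested.

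Copies of cytoskeletal genes divided by parent. Of 57 copies of tubulin, actin, cofilin and thymosin genes 6 (10.5%, against 7.19% of all features) were lower and 0 higher in testis than brain as deposited. With equal FPKM sums 0 were lower and 8 higher. The 6 were 5 copies of the alpha tubulin gene Tuba1b and 1 of Tuba1c. In testis against liver 6 (10.5%, against 15.2%) were higher and 0 lower, 5 of them copies of the cytoplasmic actin gene Actg1. In brain against liver 12 (21.1%, against 9.15%) were higher and 0 lower, and with equal FPKM sums none was called. Gm14150, a Tuba1b copy, had 117 FPKM in testis, 663 FPKM in brain and 64.1 FPKM in liver, against 51.7, 393 and 32.8 FPKM for Tuba1b.

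Copies of genes for ubiquitin, ubiquitin-conjugating enzymes, SUMO and proteasome subunits, which mark and degrade proteins, had calls in 1 direction as deposited. Of 92, 17 (18.5%, against 15.2% of all features) were higher and 0 lower in testis than liver, and 3 and 0 with median-ratio scaling and 8 and 0 with equal FPKM sums. In testis against brain 8 (8.70%, against 11%) were higher and 0 lower, which became 2 higher and 4 lower with equal protein-coding sums and 42 and 0 with equal FPKM sums. All 6 copies of Ube2l3 and both of Ube2n were among the 17. Of 39 histone copies 9 (23.1%, against 15.2% of all features) were higher and 0 lower in testis than liver. Of the 9, 5 were copies of the replacement histone gene H3f3a. In testis against brain 3 (7.69%, against 11%) were higher and 0 lower. H3f3a-ps2 had 360 FPKM in testis, 116 FPKM in brain and 69.6 FPKM in liver, against 289, 110 and 83.8 FPKM for H3f3a. No scaling turned the direction of the histone copies in either comparison, and the higher calls against liver ranged from 2 to 9 of the 39.

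Copies of genes for RNA-binding proteins were called about as often as all features or less. Of 75, 8 (10.7%, against 11% of all features) were higher and 3 (4%, against 7.19%) lower in testis than brain. These became 6 and 7 with equal protein-coding sums. In testis against liver 6 (8%, against 15.2%) were higher and 0 lower, which became 1 and 3 with median-ratio scaling. The 8 included all 5 copies of Hnrnpf. Gm11560, a copy of the cold-shock domain gene Ybx1 with 79.4% unique windows, had 381 FPKM in testis, 30.2 FPKM in brain and 55.6 FPKM in liver, against 1215, 112 and 151 FPKM for Ybx1. Gm16580, a copy of the poly(A)-binding protein gene Pabpc1 in an intron of Luc7l on the same strand, had 316 FPKM in testis, 17.1 FPKM in brain and 21.8 FPKM in liver, against 996, 57.1 and 90.9 FPKM for Pabpc1. Both copies were highest in testis by more than their bounds.

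Copies of respiratory chain genes had few calls as deposited, with 5 lower and 2 higher in testis than brain and 4 lower and 2 higher in testis than liver. These are 5.15% lower than brain, against 7.19% of all features, and 4.12% lower than liver, against 3.82%. The higher ones are 2.06% in both comparisons, against 11% of all features over brain and 15.2% over liver. With equal FPKM sums 19 were higher and 0 lower than brain, with equal protein-coding sums 17 were lower than brain, and with median-ratio scaling 21 were lower than liver. Gm13771, a copy of the cytochrome c oxidase gene Cox7b with all windows unique, had 8.81 FPKM in testis, 201 FPKM in brain and 147 FPKM in liver, against 2.07, 60.3 and 41.3 FPKM for Cox7b. Gm14630, a copy of Ndufa4, had 24.9 FPKM in testis, 404 FPKM in brain and 389 FPKM in liver, against 48.9, 723 and 654 FPKM for Ndufa4. Both were lowest in testis, as were their parents. Among 94 copies of cyclophilin, FKBP and chaperone genes 8 (8.51%, against 15.2% of all features) were higher and 1 (1.06%, against 3.82%) lower in testis than liver. These became 1 and 4 with median-ratio scaling. In testis against brain 2 (2.13%, against 11%) were higher and 3 (3.19%, against 7.19%) lower, which became 23 and 0 with equal FPKM sums. The 3 lower ones were copies of the heat shock protein gene Hsp90ab1.

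The high mobility group copies held a cluster on chromosome 14. Of 95 copies 6 (6.32%, against 11% of all features) were higher and 0 lower in testis than brain. In testis against liver 6 (6.32%, against 15.2%) were higher and 0 lower, which became 4 and 1 with median-ratio scaling. With equal FPKM sums 23 were higher and 0 lower than brain, and 15 higher and 1 lower than liver. All 6 called as deposited match Hmgb2, a chromatin protein gene. Hmgb2 had 46.8 FPKM in testis, 2.29 FPKM in brain and 1.4 FPKM in liver. The 20 members on chromosome 14 that match Hmgb2, at only 71.3 to 74.7% identity, ranged from 0 to 16.9 FPKM in testis with a median of 2.25 FPKM, and 15 of them reached 1 FPKM. In brain 19 of the 20 were listed at 0 and the other had 0.178 FPKM, and in liver all 20 were listed at 0. The highest, Gm3140, had no unique window, and its windows are shared with other genes, so these members are not independent of each other. They were picked out after their values were seen.

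**Figure D5:**
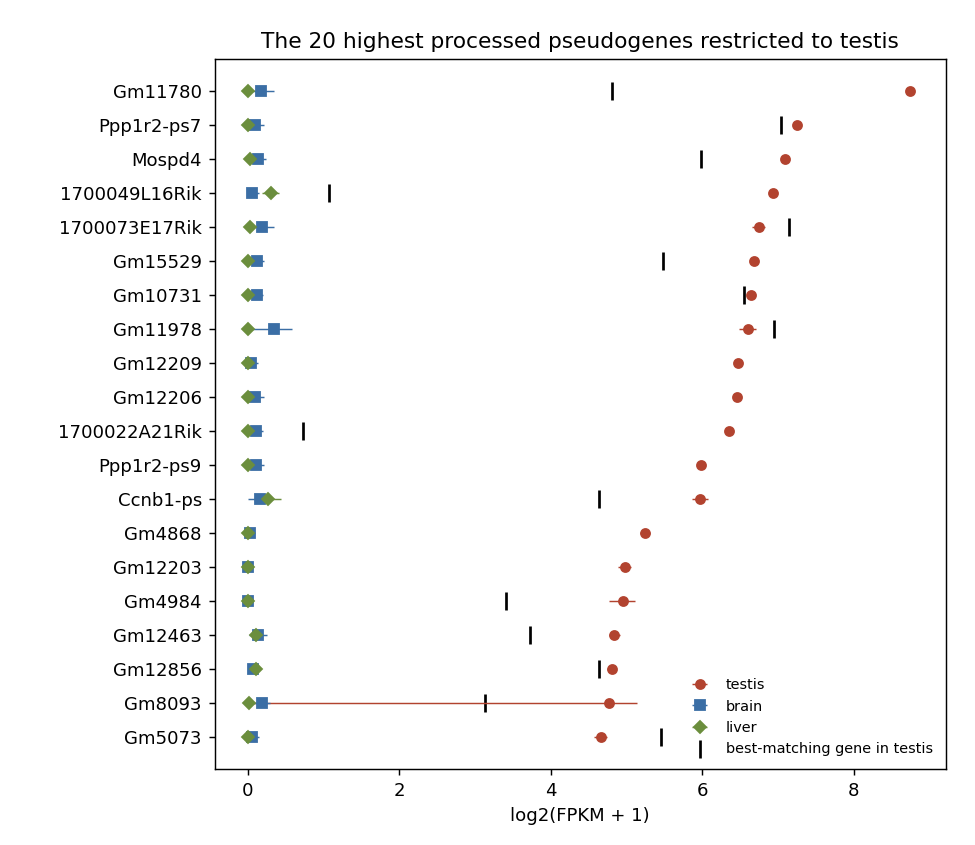
FPKM on a log2(FPKM + 1) axis of the 20 highest members restricted to testis (circles), with brain (squares) and liver (diamonds) values, the authors' bounds as lines and the testis value of the parent gene as a black tick where there is one. Testis values run from 24.2 FPKM in Gm5073 to 429 FPKM in Gm11780, and brain and liver values lie under 0.5 FPKM. The testis estimate of Gm8093 was marked as failed, and its bounds reach 0.

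Members restricted to 1 tissue, at 5 FPKM or more there and under 0.5 FPKM in both others, were 58 for testis, 3 for brain and 3 for liver. These are 1.56% of members in testis, against 5.53% of all features, 0.0805% in brain, against 2.31%, and 0.0805% in liver, against 1%. The 58 members of testis ran from 5.16 to 429 FPKM with a median of 14 FPKM, and 18 of them were listed at 0 in both brain and liver. Of the 58, 38 had at least 80% unique windows, 23 (39.7%) lay on chromosome X and 13 were annotated as transcribed. Chromosome X held 23.2% of all members and 13.5% of the 2037 features of any kind restricted to testis. Of the 41 with a parent in the tables, 15 had a parent restricted to testis as well, and 20 had a parent at 1 FPKM or more in both brain and liver, 18 of these 20 with at least 80% unique windows.

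The highest was Gm11780 (ENSMUSG00000085155, chr4:4455351-4455866, minus strand, between genes). It had 429 FPKM [421 to 438] in testis and 0.128 FPKM [0 to 0.276] in brain and was listed at 0 in liver. Its parent Ptp4a2, at 78.4% identity, had 27.0 FPKM in testis, 23.9 FPKM in brain and 18.2 FPKM in liver. The parent was thus nearly even over the tissues, and the copy stood above it in testis alone. As the sequences above show, 16 of 76 bases differ, and all windows of Gm11780 stay unique when 2 mismatches are allowed.

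Ppp1r2-ps7 (ENSMUSG00000052025, chrX:22038758-22039524, plus strand, between genes) had 151 FPKM [147 to 155] in testis and 0.0714 FPKM in brain and was listed at 0 in liver. Its parent Ppp1r2 had 131 FPKM in testis, 27.6 FPKM in brain and 10.6 FPKM in liver. The copy differed more between tissues than the parent, by 7.15 against 2.20 log2 units for testis minus brain. Ppp1r2-ps9, also on chromosome X, had 62.3 FPKM in testis and 0.0786 FPKM in brain and was listed at 0 in liver. 1700049L16Rik (ENSMUSG00000043859, chr10:71442638-71443442, minus strand, between genes) had 121 FPKM [118 to 124] in testis, 0.0440 FPKM in brain and 0.236 FPKM in liver. Its parent Jpt2 was low throughout, with 1.10 FPKM in testis, 0.795 FPKM in brain and 3.88 FPKM in liver.

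Other restricted members had parents that are present in all 3 tissues. Mospd4, matching Vapa, an endoplasmic reticulum contact protein gene, had 136 FPKM in testis, 0.0973 FPKM in brain and 0.0182 FPKM in liver, against 62.6, 81.2 and 32.2 FPKM for Vapa. 1700073E17Rik, a locus of 14584 bp and 7 exons whose best match is the ribosomal protein gene Rpl7, had 106 FPKM [99.9 to 113] in testis, 0.134 FPKM in brain and 0.0233 FPKM in liver, against 140, 153 and 151 FPKM for Rpl7. It lies opposite Lmntd1. Gm11978, matching Chchd2, a gene for a mitochondrial protein, had 96.2 FPKM in testis and 0.270 FPKM in brain and was listed at 0 in liver, against 122, 206 and 242 FPKM for Chchd2. The lowest parent value among these was 32.2 FPKM, of Vapa in liver, and the highest member value outside testis was 0.270 FPKM, of Gm11978 in brain.

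A further group had parents that were themselves restricted to testis. The cell type that expresses these parents was not measured, and they include cell division genes. The 55 members whose parents were restricted to testis held 24 (43.6%, against 11% of all features) called higher and 0 lower in testis than brain. In testis against liver 24 (43.6%, against 15.2%) were called higher and 0 lower, and 15 members were restricted to testis themselves. Those parents were chosen by their values in the same libraries, so this direction is a description. Gm15529, matching Hormad1, a gene of the meiotic chromosome axis, had 102 FPKM in testis and 0.0836 FPKM in brain and was listed at 0 in liver. Ccnb1-ps and Gm12856, copies of the mitotic cyclin gene Ccnb1, had 61.9 and 27.0 FPKM in testis, 0.118 and 0.0484 FPKM in brain, and 0.206 and 0.0792 FPKM in liver. Plk-ps1, Gm7856 and Gm12463, matching the cell division genes Plk1, Cdc20 and Aurkc, had 9.32, 11.6 and 27.7 FPKM in testis. The highest brain or liver value among the 3 was 0.116 FPKM, of Plk-ps1 in brain.

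On chromosome 11 lay Gm12209, Gm12206 and Gm12203, for which no parent was found. They had 87.9, 87.0 and 30.5 FPKM in testis, and none exceeded 0.0669 FPKM in brain, and all were listed at 0 in liver. Their loci are chr11:52292010-52292605 on the minus strand, chr11:52002455-52003055 on the plus strand and chr11:50988727-50989324 on the minus strand. Unique windows made up 39.9%, 66.9% and 49.5% of them, and 0%, 0% and 11.3% at up to 2 mismatches, so reads could be shared with other genes.

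The 3 members restricted to brain were Pabpc1l2b-ps, Gad1-ps and Gm14776. Gad1-ps (chr10:98906364-98909641, plus strand, between genes) had 0.0166 FPKM in testis, 8.22 FPKM [7.84 to 8.59] in brain and 0.00400 FPKM in liver, and Gad1 had 0.115 FPKM in testis, 70.2 FPKM in brain and 0.0107 FPKM in liver. Gad1-ps thus stood well below Gad1 in brain, in the same tissue. Pabpc1l2b-ps, on chromosome X, had 0.454 FPKM in testis, 35.6 FPKM in brain and 0.0280 FPKM in liver. The neighbouring Pabpc1l2a-ps had 0.649, 41.1 and 0.0341 FPKM in the same order, just outside the limit in testis. Only 28.8% of the windows of Pabpc1l2b-ps were unique, so reads could be shared with other genes. Its best match Pabpc4, at 77.4% identity, had 1.09, 4.76 and 4.92 FPKM in the same order. Brain minus liver was 5.15 log2 units for Pabpc1l2b-ps and -0.04 for Pabpc4. Gm14776, a copy of the nucleophosmin gene Npm1 in an intron of Il1rapl1 on the same strand, had 0.225 FPKM in testis, 7.33 FPKM [6.58 to 8.09] in brain and 0.0181 FPKM in liver. Npm1 had 233 FPKM in testis, 115 FPKM in brain and 83.2 FPKM in liver, an order the copy did not share.

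The 3 members restricted to liver were Mup-ps22, Gm16407 and Marcksl1-ps4. Mup-ps22 (chr11:54937197-54937439, plus strand, between genes) had 280 FPKM [268 to 291] in liver and was listed at 0 in testis and brain. Mup20 had 0.779 FPKM in testis, 0.985 FPKM in brain and 7110 FPKM in liver. Mup-ps22 and Mup20 differ at 8 of the 76 bases shown above. Gm16407, a copy of the heparan sulphate proteoglycan gene Sdc1 on chromosome X, had 0.278 FPKM in testis, 0.123 FPKM in brain and 16.6 FPKM [15.4 to 17.8] in liver, against 1.14, 0.266 and 43.3 FPKM for Sdc1. Marcksl1-ps4 had 0.146 FPKM in testis, 0.150 FPKM in brain and 5.61 FPKM [4.35 to 6.86] in liver, and it overlaps an exon of Akr1c19 on the same strand, to which it is identical. It cannot be told apart from that gene, which had 25.6 FPKM in liver.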

How the data were processed

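Polyadenylated RNA of testis, brain and liver was sequenced in 1 library per tissue. Per the submitters' processing notes, reads were handled on the mm9 build with Cufflinks 2.0.0, Bowtie 0.12.5 and TopHat 1.4.0. The authors deposited FPKM values with lower and upper bounds and a status per gene, and the headers do not name the level of the bounds, taken here as 95%. For the annotation behind the tables, their filters and reads with several matches, the method is not given in the sources used here. The bounds describe 1 library and cover more than counting error, and 76 bases was the read length. In testis Cct3-ps1, a locus of 2085 bp, had 784 FPKM [671 to 898], and 1700019M22Rik, of 602 bp, had 744 FPKM [734 to 754].

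Biotypes, symbols, transcript sequences and positions relative to other genes came from GENCODE M21 by gene identifier (GRCm38), and coordinates are those of the tables (mm9, starts raised by 1). In 2970 members the span was equal in both. The parent is the protein-coding gene with the highest bit score in a blastn search (BLAST+ 2.17.0, plus strand, word size 11, e-value 1e-10) whose alignment covers at least 50% of the member. Windows of 76 bases were looked up exactly and, every 10 bases, with up to 2 mismatches (bwa 0.7.19). Members were called at 4-fold on log2(FPKM + 1), pseudocount 1, with bounds apart, without a test, since each tissue has 1 library. The scripts (Python 3.11.15, pandas 2.3.3, numpy 2.4.6, scipy 1.17.1) were tested on simulated data.

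Genes were named by rule: per pair of tissues the 5 greatest differences each way among members whose higher tissue reached 5 FPKM, the 5 most abundant and the 5 highest restricted members per library, the same among members with at least 80% unique windows, and the 3 highest members per family. The text gives the ones described, and genes outside the rule were chosen after their values were seen. The members, lists and rules were chosen with earlier results of these data known. Alternatives changed the fold, pseudocount, scaling, filters, length limit and uniqueness.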

Additional observations from a re-analysis of the deposited data

How the results depend on the processing

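Of the counts under alternative settings, 141 stayed within 1.5 times the reported count, among them every count from estimates marked OK only. That setting kept 3715 of 3729 members, and a filter at 1 FPKM in any library cannot remove a 4-fold call. The other counts moved further. These include all 15 counts at up to 2 mismatches, 13 with at least 80% unique windows and 8 with equal FPKM sums. Counts are given in the order testis, brain, liver for detection and level, and for calls as testis higher than brain, lower than brain, higher than liver, lower than liver, then brain higher than liver and lower than liver. The reported counts were 1592, 1461 and 1341 detected, 619, 532 and 555 above the parent, and 232, 99, 330, 83, 80 and 35 called. At least 80% unique windows left 767, 683 and 591 detected, 131, 92 and 102 above the parent, and 124, 39, 177, 31, 42 and 13 called. At least 80% unique windows at up to 2 mismatches, chosen after seeing the data, left 312, 256 and 195 detected, 39, 20 and 21 above the parent, and 71, 18, 99, 15, 22 and 5 called. A span of 500 bp or more left 960, 871 and 797 detected and 344, 289 and 306 above the parent, and 50 and 22 called between brain and liver. Equal spans in annotation and tables, also chosen after seeing the data, left 1050, 956 and 855 detected, 329, 276 and 293 above the parent, 62 lower in testis than brain, 49 lower in testis than liver, and 50 and 21 between brain and liver. These settings keep fewer members by construction. At 2-fold 481, 254, 687, 198, 364 and 84 were called, at 8-fold 106, 45, 150, 23, 35 and 11, and with a pseudocount of 0.1, 376, 167, 552, 130, 179 and 58. Equal FPKM sums gave 1071 higher and 4 lower in testis than brain, 140 lower in testis than liver, and 10 higher and 989 lower in brain than liver. Median-ratio scaling gave 188 higher and 183 lower in testis than liver, and 36 and 78 in brain than liver. Equal protein-coding sums gave 189 lower in testis than brain, and 235 higher and 17 lower in brain than liver. Which scaling is right was not tested. Members restricted to testis were 58 as reported, 36 at 10 FPKM, 89 with equal FPKM sums, 18 when listed at 0 elsewhere, 38 with unique windows and 27 at up to 2 mismatches. Those of brain were 3 as reported, 1 at 10 FPKM, 0 with equal FPKM sums, 0 when listed at 0 elsewhere, 6 without the length limit and 1 at up to 2 mismatches. Those of liver were 3 as reported, 1 at 500 bp, 13 with equal FPKM sums, 1 when listed at 0 elsewhere, 8 with median-ratio scaling and 1 at up to 2 mismatches. No paired analysis was possible because each tissue had 1 library. Depth limits low values, and members between 1 and 2 FPKM had bounds of 30.9% on either side in testis, 29.2% in brain and 18.5% in liver, as medians.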
